A study of Mus musculus with 6 samples.

Results

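The genes described here are 34 members of the unfolded protein response and of the folding machinery of the endoplasmic reticulum (ER). They were chosen by name as ER stress sensors with the transcription factor *Xbp1*, chaperones, disulfide exchange enzymes, degradation factors, translocation factors and *Wfs1*. The choice was made with earlier results of these data known. All 34 were found among the 56748 genes of the count table, and all 34 passed the filter on low counts that left 14936 genes for testing. RNA-seq was performed on polyA RNA from 6 cultures of unsorted CD4 T cells of wild type (WT) C57BL/6J mice aged 6 to 10 weeks. The labels name splenocytes as the source, and the study's methods name spleen and lymph nodes. Naïve CD4 cells, isolated with a negative selection kit, were activated through CD3 and CD28 under Treg polarizing conditions, which were IL-2 and TGF-β with antibodies against IFNγ and IL-4, and were collected at day 3 (72 hr). An antisense oligonucleotide (ASO) was added at 10 μM from the start, in 3 cultures a scrambled control and in 3 cultures an ASO against *Pgam*, which encodes the glycolytic enzyme phosphoglycerate mutase. The ASO sequences are described as proprietary. The study describes the replicates as biological, but the labels do not say which libraries share an animal, and p-values measure only the spread between these libraries.

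The libraries labelled scrambled ASO held 17588755, 18032805 and 16231127 estimated counts in replicates 1, 2 and 3, and those labelled *Pgam* ASO held 16589933, 15860476 and 16803881. Levels are given below as CPM, the estimated count relative to the TMM-scaled total of its library, always for replicates 1, 2 and 3 in turn. Differences are log2 fold changes of the *Pgam* label over the scrambled label with their standard error (SE) and n = 3 libraries per label. A gene was called higher or lower where the adjusted p of edgeR's quasi-likelihood test, corrected over all 14936 genes, was under 0.05.

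As background, proteins that enter the ER are folded there by chaperones and disulfide isomerases, and those that fail to fold are drawn back into the cytosol and degraded. When unfolded proteins build up, the membrane sensors encoded by *Atf6*, *Ern1* (IRE1) and *Eif2ak3* (PERK) slow translation and induce chaperone and degradation genes, in part through *Xbp1*, whose RNA is spliced by IRE1. In lymphocytes this response is best known for the growth of the secretory apparatus in plasma cells, and activated T cells use it as well.

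The targeted genes were examined before the members. *Pgam1* stood at 600, 478 and 707 CPM in the libraries labelled scrambled ASO and at 658, 661 and 707 CPM in those labelled *Pgam* ASO. The groups overlapped, and *Pgam1* was not called (log2 fold change 0.18, SE 0.13, edgeR adjusted p = 0.331). Of the stretches of 31 bases in its transcripts, 37.1% also occur in other genes, mainly a pseudogene that held between 103 and 150 estimated counts in each library, so that its count is less certain. *Pgam2* was at 5.23, 6.75 and 2.85 CPM against 2.98, 2.69 and 2.60 CPM and was not called either (-0.84, SE 0.31, edgeR adjusted p = 0.0854), although it was called lower without a filter on low counts and without replicate 3 of the scrambled label. RNA of the targeted genes therefore does not check the labels, and the groups are named by their labels throughout.

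Of the 34 members, 9 (26.5%) were called higher in the libraries labelled *Pgam* ASO, beside 8.03% of all genes tested. A single member (2.94%) was called lower, beside 9.15% of all genes tested. The median log2 fold change was 0.22 over the members and -0.0061 over all genes tested. Because earlier results were known when the members were chosen, the comparison with all genes is a description without a test. The 6 libraries did not overlap between labels for 19 members that were higher and 2 that were lower, beside 19.6% and 19.8% of all genes tested. The calls were not spread evenly over the roles. *Xbp1*, 7 of 11 chaperones and 1 of 4 disulfide exchange enzymes rose, the sensor *Eif2ak3* fell, and no degradation or translocation factor was called by edgeR. Whether these roles differ from each other was not tested. The number of calls changed with the libraries included, since 0 members were called by edgeR without replicate 2 of the *Pgam* label, 2 were called higher without replicate 1 of either label and 5 without replicate 2 of the scrambled label. The log2 fold changes of the 9 that rose ran from 0.37 to 0.81 with all libraries and from 0.35 to 0.85 without replicate 2 of the *Pgam* label. Over all libraries left out in turn, they ran from 0.29 (*Hsp90b1*) to 0.95 (*Sdf2l1*). In unsorted cultures, fewer cells of a type and less RNA per cell cannot be told apart. The summed level of all members was 6131, 5436 and 6463 CPM under the scrambled label and 7741, 7549 and 6910 CPM under the *Pgam* label.

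**Figure D1:**
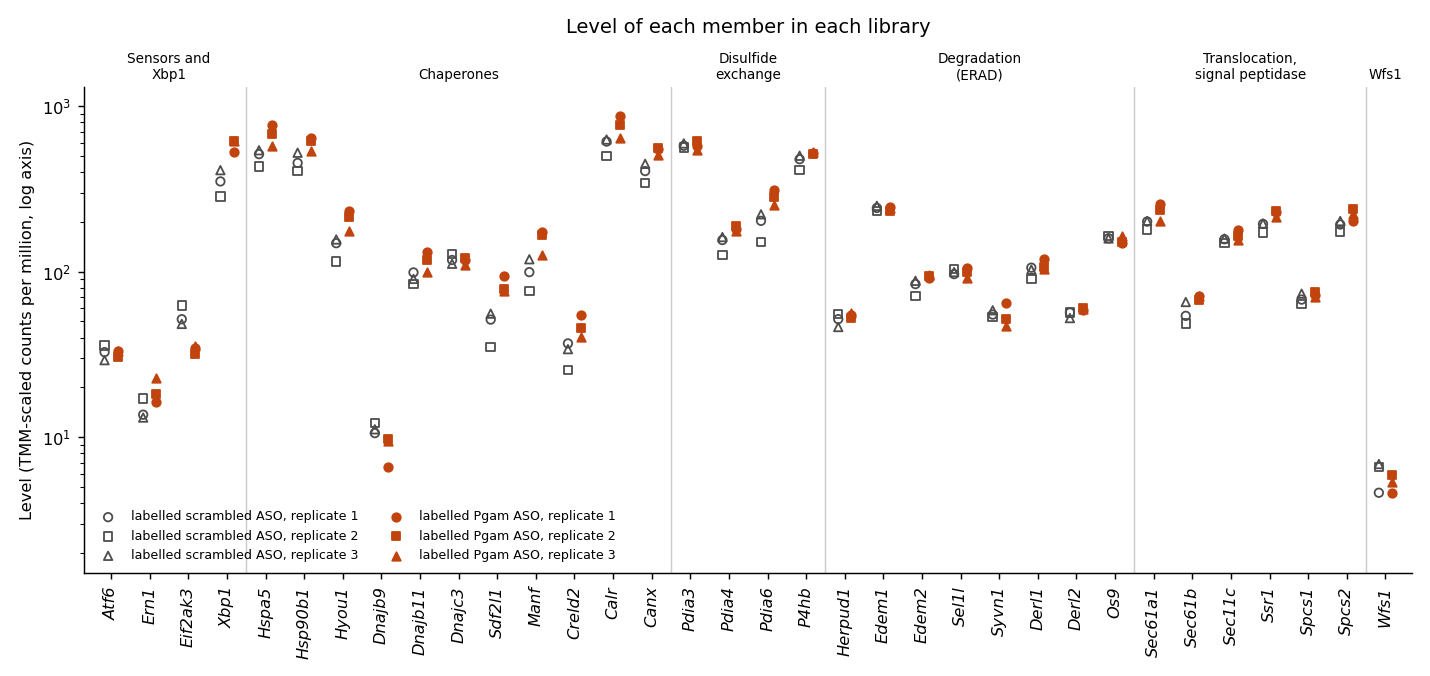
Level of each of the 34 members in each library in TMM-scaled CPM on a log axis, ordered by role, with open symbols for libraries labelled scrambled ASO and filled symbols for those labelled *Pgam* ASO (n = 3 each). The filled symbols lie above all open ones for 19 members and below all of them for *Eif2ak3* and *Dnajb9*.

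The members differed widely in level. Per kilobase of the principal transcript, the most abundant under the scrambled label was *Calr* at 266 CPM, followed by *Pdia3* at 209, *Sec11c* at 180, *Xbp1* at 164 and *Hsp90b1* at 163 CPM per kilobase. *Wfs1* at 1.59, *Ern1* at 2.11, *Atf6* at 4.49 and *Dnajb9* at 4.60 CPM per kilobase were the least abundant. Under the *Pgam* label, *Calr* at 348 CPM per kilobase was still the most abundant and *Xbp1* at 276 came next.

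Among the sensors, *Eif2ak3* and *Xbp1* moved in opposite directions. *Xbp1* (ENSMUSG00000020484, chr11:5520659-5525893 on GRCm38), the transcription factor made active by IRE1, was at 351, 285 and 411 CPM under the scrambled label and at 531, 618 and 612 CPM under the *Pgam* label. Every library labelled *Pgam* ASO lay above every library labelled scrambled ASO, a rise of 0.75 (SE 0.13, edgeR adjusted p = 0.00669). The table sums transcripts to genes, so that spliced and unspliced *Xbp1* RNA cannot be told apart in it. *Eif2ak3* (ENSMUSG00000031668, chr6:70844515-70905245), the kinase that slows translation through eIF2α, was at 51.6, 62.5 and 48.3 CPM against 34.3, 31.9 and 35.4 CPM. It was lower in all 3 libraries labelled *Pgam* ASO, a fall with a log2 fold change of -0.68 (SE 0.11, edgeR adjusted p = 0.00631). Both calls were lost without replicate 2 of the *Pgam* label, where the adjusted p was 0.0513 for *Xbp1* and 0.0536 for *Eif2ak3*, and both were kept when any other library was left out. *Atf6*, the sensor that is itself cut to a transcription factor, ranged from 29.2 to 35.7 CPM over the 6 libraries and had a log2 fold change of -0.017 (SE 0.11). *Ern1* was at 13.7, 17.1 and 13.1 CPM against 16.2, 18.3 and 22.8 CPM. Its groups overlapped, and it was not called (0.38, SE 0.16, edgeR adjusted p = 0.122).

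The chaperones held most of the calls. Of 11 members with this role, 7 rose and 4 were not called, with a median log2 fold change of 0.43. The largest rise was that of *Sdf2l1* (ENSMUSG00000022769, chr16:17130138-17132383), a partner of the HSP70 system of the ER, which was at 51.3, 35.1 and 55.8 CPM under the scrambled label and 93.5, 79.0 and 76.9 CPM under the *Pgam* label. All 3 libraries labelled *Pgam* ASO were higher, by 0.81 (SE 0.16, edgeR adjusted p = 0.0134). *Manf* (ENSMUSG00000032575, chr9:106838312-106891979), a small protein that binds the chaperone BiP, was at 99.4, 76.5 and 119 CPM against 174, 166 and 127 CPM. Its groups did not overlap, although replicate 3 of the *Pgam* label was close to replicate 3 of the scrambled label, and the difference was 0.66 (SE 0.17, edgeR adjusted p = 0.0307). *Hyou1* (ENSMUSG00000032115, chr9:44379490-44392369), which exchanges the nucleotide on BiP, was at 149, 115 and 156 CPM against 232, 214 and 176 CPM, a rise of 0.57 (SE 0.13, edgeR adjusted p = 0.0226). *Creld2* (ENSMUSG00000023272, chr15:88819646-88826683), an ER protein induced by ER stress, was at 36.9, 25.4 and 34.02 CPM against 55.1, 45.9 and 40.4 CPM, a rise of 0.56 (SE 0.16, edgeR adjusted p = 0.0375). For both genes the lowest library labelled *Pgam* ASO was replicate 3 and the lowest library labelled scrambled ASO was replicate 2.

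The abundant chaperones that rose had smaller log2 fold changes, a difference that was not tested. *Hspa5* (ENSMUSG00000026864, chr2:34771970-34777547), which encodes BiP, the main HSP70 of the ER, was at 513, 432 and 541 CPM under the scrambled label and at 767, 683 and 579 CPM under the *Pgam* label. The groups did not overlap, and the log2 fold change was 0.45 (SE 0.12, edgeR adjusted p = 0.0321). *Canx* (ENSMUSG00000020368, chr11:50293961-50325673), the membrane lectin that holds glycoproteins during folding, was at 405, 345 and 448 CPM against 551, 562 and 505 CPM, a rise of 0.43 (SE 0.10, edgeR adjusted p = 0.0234). *Hsp90b1* (ENSMUSG00000020048, chr10:86690209-86705509), the HSP90 of the ER, was at 454, 407 and 523 CPM against 640, 612 and 537 CPM, a rise of 0.37 (SE 0.11, edgeR adjusted p = 0.0428). In its case 12.3% of the 31-base stretches of its transcripts are shared with other genes, which makes its count less certain. The main one, *1810014B01Rik*, held between 55 and 100 estimated counts in each library, against 7537 to 10298 for *Hsp90b1*.

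*Calr* and *Dnajb11* lay just past the threshold. *Calr*, the soluble partner of calnexin, was at 611, 500 and 629 CPM against 869, 770 and 643 CPM, with no overlap (0.39, SE 0.12, edgeR adjusted p = 0.0544). *Dnajb11*, a J protein of BiP, was at 98.9, 84.0 and 90.4 CPM against 131, 118 and 99.7 CPM, also with no overlap (0.35, SE 0.11, edgeR adjusted p = 0.0531). Both were called by DESeq2, without a filter on low counts and without replicate 3 of the *Pgam* label, and *Calr* also without replicate 3 of the scrambled label. The remaining chaperones did not follow the others. *Dnajb9*, a J protein that holds IRE1 inactive, was at 10.6, 12.2 and 11.2 CPM against 6.65, 9.69 and 9.47 CPM, so that all 3 libraries labelled *Pgam* ASO were lower, but it was not called (-0.40, SE 0.18, edgeR adjusted p = 0.148). *Dnajc3*, which inhibits PERK, was at 118, 128 and 112 CPM against 117, 122 and 110 CPM. Its log2 fold change was -0.032, with a 95% interval from -0.22 to 0.16.

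The chaperone calls depended on which libraries were included. Of the 7 that rose, 1 was kept without replicate 1 of the scrambled label, 3 without replicate 2 of the scrambled label, 1 without replicate 1 of the *Pgam* label and 0 without replicate 2 of the *Pgam* label. Without replicate 3 of either label, all 7 were kept. With the replicate number as a block, 3 were kept, and *Hspa5*, *Hsp90b1*, *Canx* and *Manf* were lost. *Sdf2l1* was the chaperone kept without replicate 1 of either label, and over the left-out libraries its log2 fold change ran from 0.63 to 0.95.

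**Figure D2:**
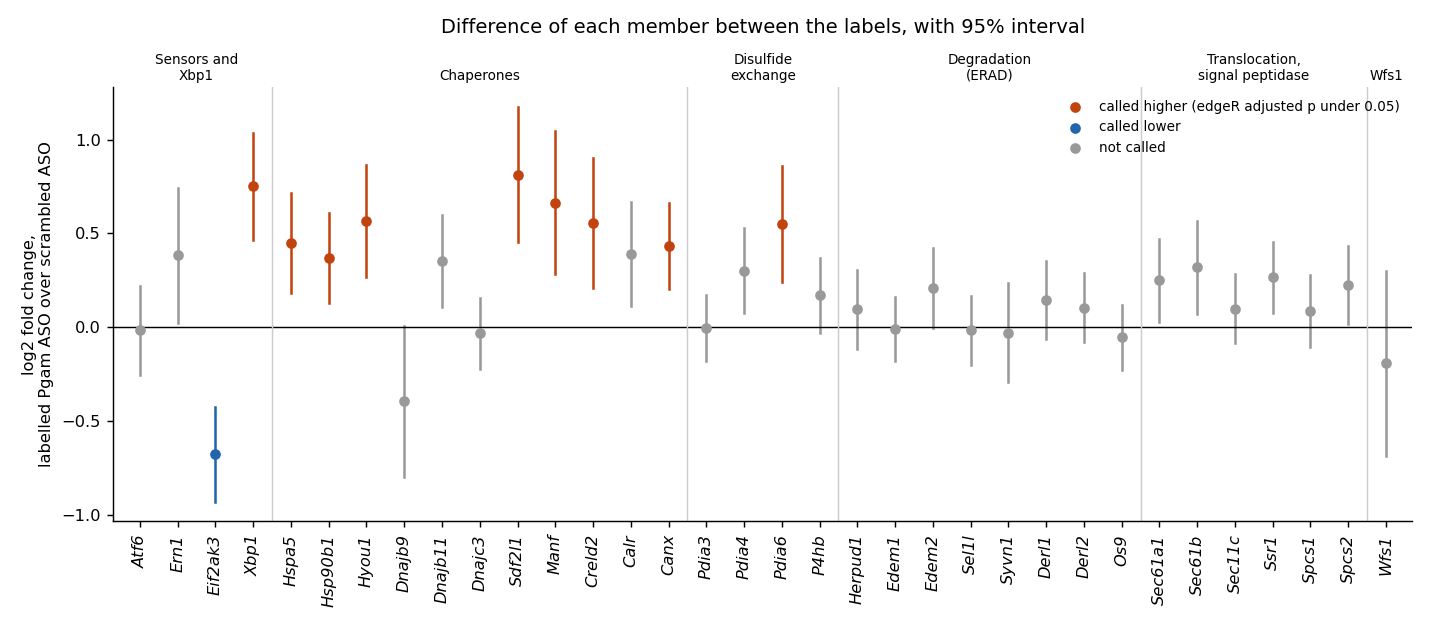
Log2 fold change of each member, label *Pgam* ASO over label scrambled ASO, with its 95% interval from the edgeR fit, ordered by role and coloured by call (n = 3 libraries per label). Called genes are *Xbp1*, *Eif2ak3*, 7 chaperones and *Pdia6*, and the 8 degradation genes lie between -0.053 and 0.21.

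Of the 4 disulfide exchange enzymes, 1 rose. *Pdia6* (ENSMUSG00000020571, chr12:17266545-17284770), a protein disulfide isomerase that also acts on the sensors, was at 203, 151 and 222 CPM under the scrambled label and 311, 281 and 251 CPM under the *Pgam* label. The groups did not overlap, and the log2 fold change was 0.55 (SE 0.14, edgeR adjusted p = 0.0274). The call was lost without replicate 1 of the scrambled label and without replicate 1 or replicate 2 of the *Pgam* label, where the adjusted p reached 0.110. *Pdia4* was at 155, 127 and 162 CPM against 181, 190 and 176 CPM, with no overlap, and was not called (0.30, SE 0.10, edgeR adjusted p = 0.0647), although it was called by DESeq2, without a filter on low counts and without replicate 3 of the scrambled label. The most abundant isomerases per kilobase had the smallest log2 fold changes of the 4, a difference that was not tested. *P4hb* had a log2 fold change of 0.17 (SE 0.090), and *Pdia3*, the partner of calnexin and calreticulin, was at 576, 564 and 596 CPM against 571, 612 and 547 CPM. For *Pdia3* the log2 fold change was -0.0043, with a 95% interval from -0.18 to 0.17.

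The 8 factors of ER-associated degradation (ERAD), which recognise, extract and ubiquitinate misfolded proteins, gave 0 calls by edgeR, by DESeq2 and by limma-voom, and 0 were at an unadjusted p under 0.05, beside 34.9% of all genes tested. Their median log2 fold change was 0.042, and 0.0068 with library size alone, where the median of all genes tested was -0.042. *Herpud1*, a scaffold of the degradation complex, was at 51.7, 55.4 and 46.3 CPM against 54.8, 52.4 and 56.6 CPM. *Syvn1*, the ubiquitin ligase HRD1, was at 55.03, 53.1 and 58.4 CPM against 64.4, 52.0 and 46.9 CPM. For both genes the groups overlapped. *Edem1*, which marks glycoproteins for disposal, ranged from 233 to 250 CPM over all 6 libraries, and its 95% interval ran from -0.18 to 0.16. *Sel1l* (-0.016) and *Os9* (-0.053), which bring substrates to the ligase, *Derl1* (0.14) and *Derl2* (0.10), which take part in their extraction, and *Edem2* (0.21) had log2 fold changes with SE between 0.078 and 0.095. *Edem2* and *Derl2* were higher in all 3 libraries labelled *Pgam* ASO.

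The 6 translocation factors all had positive log2 fold changes, from 0.087 to 0.32 with a median of 0.24, also with RLE size factors or library size alone in place of TMM. None was called by edgeR or limma-voom, 1 was called by DESeq2 and 4 had an unadjusted p under 0.05, beside 34.9% of all genes tested. *Ssr1*, a subunit of the complex beside the translocon, was at 194, 172 and 195 CPM against 231, 232 and 213 CPM, with no overlap (0.27, SE 0.086, edgeR adjusted p = 0.0565). *Sec61b*, a subunit of the translocon channel, was at 54.1, 48.7 and 65.6 CPM against 71.2, 67.5 and 71.1 CPM (0.32, SE 0.11, edgeR adjusted p = 0.0726). Of its 31-base stretches, 23.5% are shared with other genes, mainly a predicted gene that held no more than 6 estimated counts in any library. The channel subunit *Sec61a1* (0.25, SE 0.10) and the signal peptidase subunit *Spcs2* (0.22, SE 0.093) were also higher in every library labelled *Pgam* ASO. The signal peptidase subunits *Sec11c* (0.099) and *Spcs1* (0.087) overlapped between labels, and *Spcs1* shares 13.4% of its stretches with other genes. *Ssr1* was called without a filter on low counts and without replicate 3 of either label, *Sec61b* without that filter and without replicate 3 of the scrambled label, and *Sec61a1* without replicate 3 of the *Pgam* label. *Wfs1*, an ER membrane protein linked to calcium handling, was at 4.61, 6.59 and 6.88 CPM against 4.60, 5.90 and 5.33 CPM and was not called (-0.19, SE 0.22, edgeR adjusted p = 0.571).

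Promoter sequence was then compared, because several members moved together. The ER stress response element (ERSE), the motif through which ATF6 acts with NF-Y, has the letters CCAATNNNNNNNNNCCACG and was searched on both strands in the RefSeq windows of 300 bases, 250 of them before the start, on GRCm38.p6. A window was given for 28 of the 34 members (not for *Atf6*, *Hyou1*, *Manf*, *Derl1*, *Sec61a1* and *Sec11c*). The exact letters were in 8 of the 28, and in 0.137% of the 27025 gene symbols with a window. The members were chosen as genes of the response that this element serves, so the difference between these shares is no separate result. The stretches below show that genes with and without a call carry the same letters, in capitals, on the gene's strand from 5′ to 3′ (CGTGG and ATTGG where the element runs on the opposite strand). The chaperones and *Pdia6* that rose come before *Calr*, *Dnajc3* and *Syvn1*, which were not called.
*Hspa5*: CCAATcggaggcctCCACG
*Hsp90b1*: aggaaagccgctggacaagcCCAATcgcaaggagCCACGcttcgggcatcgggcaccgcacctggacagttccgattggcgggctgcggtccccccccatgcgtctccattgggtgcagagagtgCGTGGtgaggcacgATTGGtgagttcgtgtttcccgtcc
*Canx*: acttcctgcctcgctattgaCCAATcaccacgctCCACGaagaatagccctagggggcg
*Creld2*: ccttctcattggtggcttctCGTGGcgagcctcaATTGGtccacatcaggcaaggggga
*Pdia6*: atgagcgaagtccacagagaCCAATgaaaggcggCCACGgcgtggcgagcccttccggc
*Calr*: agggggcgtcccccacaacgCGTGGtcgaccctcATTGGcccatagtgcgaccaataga
*Dnajc3*: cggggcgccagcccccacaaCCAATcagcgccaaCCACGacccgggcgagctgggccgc
*Syvn1*: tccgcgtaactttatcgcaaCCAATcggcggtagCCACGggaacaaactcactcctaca
In this order the stretches lie at chr2:34772025-34772043 (+ strand), chr10:86705513-86705676 (- strand), chr11:50325780-50325838 (- strand), chr15:88819500-88819558 (+ strand), chr12:17266471-17266529 (+ strand), chr8:84847055-84847113 (- strand), chr14:118937807-118937865 (+ strand) and chr19:6046512-6046570 (+ strand). The *Hspa5* element is printed alone because GENCODE M21 places it in the untranslated part of a first exon that begins before the RefSeq start. The other stretches hold 20 bases on either side of the element and overlap no exon of that annotation. *Hsp90b1* has the letters 2 times, once on each strand. The element began between 44 bases before the start in *Syvn1* and 212 bases before it in *Hsp90b1*.

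Of the 8 members with the ERSE letters, 5 rose, beside 9 of all 34 members and 8.03% of all genes tested. *Calr* had an adjusted p of 0.0544 (edgeR). *Dnajc3* and *Syvn1*, with log2 fold changes of -0.032 and -0.028, have the same letters at 105 and 44 bases before the start. *Xbp1* and *Sdf2l1*, which rose most, have a window without these letters, and *Hyou1* and *Manf*, which also rose, had no window. Across all genes tested, 9 others had the ERSE letters, of which 2 were called lower and 7 were not called, with a median log2 fold change of -0.27. The 2 that fell were *Derl3* and *Pan2*, the latter named after its value was seen. The shorter ERSE-II, which is ATTGG and CCACG with 1 base of any kind between them and so shares CCACG with the ERSE, was found in *Dnajb11* and *Herpud1* and in 0.0444% of symbols. The XBP1 motif TGACGTGG was in 0 of the 28 windows and in 0.714% of symbols, and the ATF4 motif TGATGCAA was in *Herpud1* alone and in 1.03% of symbols. A match describes letters in this window and is not evidence of binding.

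**Figure D3:**
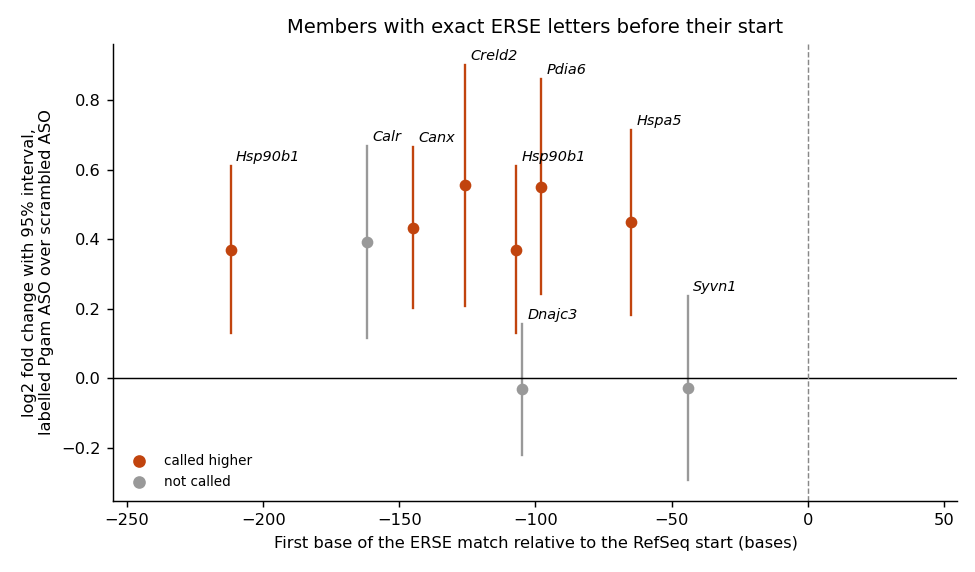
Log2 fold change with 95% interval (label *Pgam* ASO over label scrambled ASO, n = 3 libraries each) of the 8 members with exact ERSE letters, against the position of the first base of the match relative to the RefSeq start (dashed line). *Hsp90b1* appears 2 times because it has 2 matches, and *Dnajc3* and *Syvn1* lie at -0.032 and -0.028 while the other 6 lie between 0.37 and 0.56.

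Other genes of the same processes were taken from lists. The lists of ER folding, ERAD, translocation and sensing held 84 further genes, among them factors that act with these processes from outside the ER. Of the 84, 8 (9.52%) were called higher and 6 (7.14%) lower, shares near those of all genes tested. Their median log2 fold change was 0.14. Of 24 genes in the list of other folding genes, 3 rose and 3 fell. *Rcn1*, a calcium-binding protein of the ER lumen, was at 20.7, 19.6 and 20.7 CPM against 29.0, 31.6 and 39.2 CPM (0.71, SE 0.13, edgeR adjusted p = 0.00835), and *Nucb2* was at 23.7, 20.1 and 25.6 CPM against 12.8, 14.8 and 10.8 CPM (-0.85, SE 0.15, edgeR adjusted p = 0.00800). These calls were kept with every library left out in turn. *Mogs* (0.55), which trims the glycan of new glycoproteins, and the disulfide isomerase *Txndc5* (0.38) also rose, and the disulfide oxidase *Qsox1* (-0.44) and the J protein *Dnajc1* (-0.36) fell. These 4 calls were lost without replicate 1 of the scrambled label and without replicate 2 of the *Pgam* label, and all but that of *Dnajc1* also without replicate 2 of the scrambled or replicate 1 of the *Pgam* label. All 4 were also lost with the replicate number as a block, and *Qsox1* with RLE size factors and with library size alone.

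Of 19 other ERAD genes, 3 rose (*Ube2g2* 0.46, *Selenos* 0.39, *Nploc4* 0.38) and 2 fell (*Derl3* -1.65, *Edem3* -0.41), and their median log2 fold change was 0.062, and 0.026 with library size alone. *Derl3*, which is related to the members *Derl1* and *Derl2*, was at 3.04, 5.02 and 2.04 CPM against 0.745, 1.35 and 1.12 CPM. It was lower in all 3 libraries labelled *Pgam* ASO (SE 0.39, edgeR adjusted p = 0.0232). Without replicate 1 or 2 of the scrambled label or replicate 2 of the *Pgam* label, 0 of these 5 calls were kept by edgeR. Without replicate 1 of the *Pgam* label *Edem3* alone was kept. The calls of *Edem3*, *Selenos* and *Nploc4* were lost with the replicate number as a block. Of 29 other translocation and glycosylation genes, *Rpn1* (0.49, SE 0.12) and *Rpn2* (0.37, SE 0.10), subunits of the oligosaccharyltransferase, rose, 27 were not called, and the median was 0.21. Both were lost without replicate 1 of the scrambled label and without replicate 1 or 2 of the *Pgam* label. They were also lost with the replicate number as a block, and *Rpn2* without replicate 2 of the scrambled label. Of 12 other genes of sensing and of the factors that act with it, 1 fell and 11 were not called. The one that fell was *Creb3l2*, an ER-bound transcription factor cut like ATF6, at 63.6, 62.1 and 68.2 CPM against 46.9, 40.3 and 39.9 CPM (-0.61, SE 0.097, edgeR adjusted p = 0.00486), a call kept with every library left out in turn. The median of that list was 0.025, and -0.011 with library size alone.

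The branch that runs from *Eif2ak3* through eIF2α and *Atf4*, which other kinases of eIF2α also feed, held 3 genes that moved further than any member. Of 13 genes of this branch, 6 rose and 1 fell, with a median log2 fold change of 0.38. *Chac1*, a glutathione-degrading enzyme, was at 0.675, 0.972 and 2.04 CPM under the scrambled label and at 6.52, 7.44 and 5.56 CPM under the *Pgam* label. *Atf3*, a transcription factor, was at 8.27, 5.13 and 11.7 CPM against 54.3, 37.4 and 27.4 CPM. *Asns*, asparagine synthetase, was at 19.98, 17.9 and 28.1 CPM against 60.4, 64.5 and 47.8 CPM. For these 3 genes every library labelled *Pgam* ASO was higher, by 2.41 (SE 0.36, edgeR adjusted p = 0.00371), 2.25 (SE 0.35, 0.00953) and 1.39 (SE 0.17, 0.00186). *Ppp1r15a*, which reverses the phosphorylation of eIF2α, was at 26.0, 27.3 and 26.8 CPM against 18.3, 14.8 and 17.1 CPM, a fall with a log2 fold change of -0.67 (SE 0.12, edgeR adjusted p = 0.00718). *Sesn2*, *Atf4*, *Eif2s1*, *Ddit3* and *Trib3* were picked for the text once their values were known. *Sesn2* rose by 0.77 (SE 0.12, edgeR adjusted p = 0.00376) and *Atf4* by 0.41 (SE 0.11, edgeR adjusted p = 0.0315), whereas *Ddit3* (CHOP) at 14.2, 13.9 and 13.8 CPM against 13.7, 16.4 and 14.97 CPM and its target *Trib3* at 15.1, 24.1 and 12.9 CPM against 12.7, 13.9 and 17.4 CPM overlapped between labels and were not called. *Chac1*, *Asns* and *Sesn2* were called with every library left out in turn. *Atf3* was lost without replicate 1 of the scrambled label (adjusted p = 0.0509, edgeR) and *Ppp1r15a* without replicate 2 of the *Pgam* label (adjusted p = 0.0524). *Atf4* was lost without replicate 1 or 2 of either label and with the replicate number as a block, with adjusted p up to 0.132 (edgeR). *Eif2s1*, which encodes eIF2α (0.40, SE 0.12, edgeR adjusted p = 0.0489), was lost in the same fits and also with limma-voom and with at least 10 counts in every library. The 6 genes that rose were thus 3 without replicate 1 of the scrambled label and 4 without replicate 2 of the scrambled label or replicate 1 or 2 of the *Pgam* label.

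Chaperones outside the ER were compared as well. Of 22 chaperones of the cytosol that were tested, 7 (31.8%) rose and 15 were not called, with a median of 0.33. The largest rises were those of subunits of the chaperonin TRiC, *Cct6a* (0.54, SE 0.15), *Cct7* (0.50, SE 0.12) and *Cct3* (0.48, SE 0.14). *Cct6a* was at 368, 286 and 418 CPM against 587, 548 and 429 CPM, so that the same libraries were low and high as for *Hspa5*. Of 12 chaperones and proteases of mitochondria, *Hspa9* (0.55, SE 0.14) and *Grpel1* (0.41, SE 0.12) rose, 10 were not called, and the median was 0.21. The difference between these lists and the ER chaperones was not tested. Of the 7 cytosolic calls, 0 were kept without replicate 1 of the scrambled label, 1 without replicate 2 of the scrambled label, and 0 without replicate 1 or replicate 2 of the *Pgam* label, while 13 and 15 genes of the list were called without replicate 3 of the scrambled and of the *Pgam* label. The mitochondrial calls were both lost without replicate 1 of the scrambled label and without replicate 1 or replicate 2 of the *Pgam* label. *Grpel1* was also lost without replicate 2 of the scrambled label. With the replicate number as a block, 0 of the 7 cytosolic calls were kept, and *Grpel1* was lost.

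**Figure D4:**
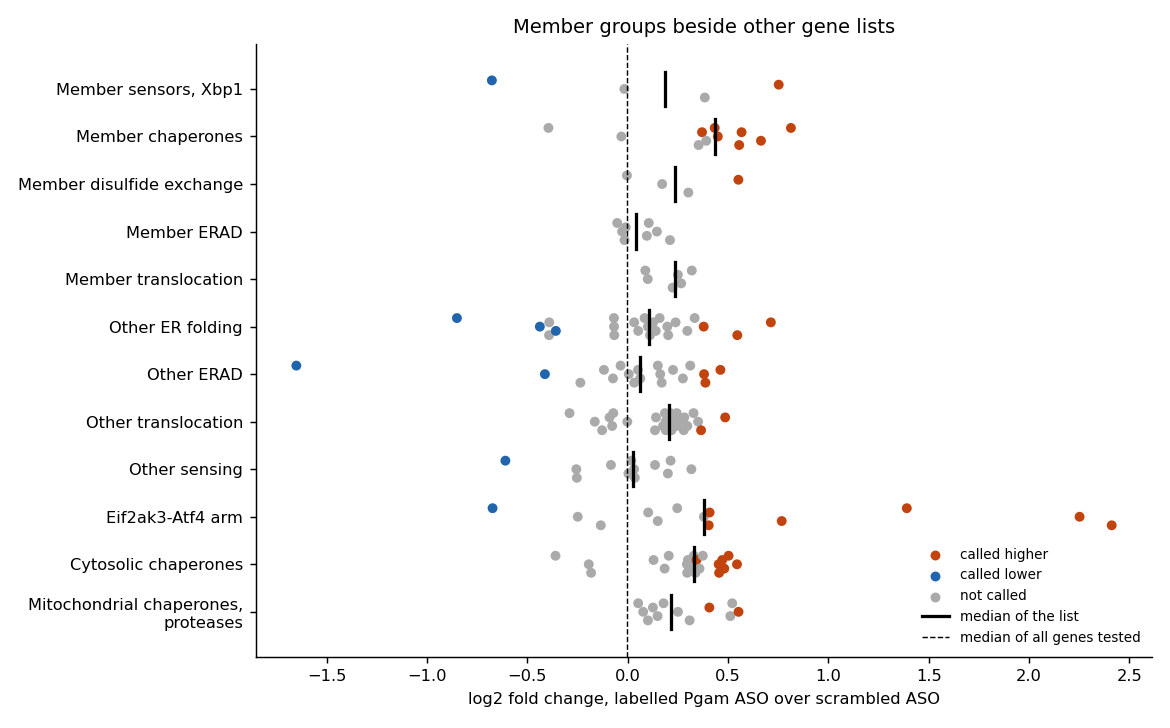
Log2 fold changes (label *Pgam* ASO over label scrambled ASO) of single genes in the member groups and in the other gene lists, 1 point per gene tested, coloured by edgeR call, with the median of each list as a bar and that of all genes tested as a dashed line. The medians of the member chaperones (0.43), the genes around *Atf4* (0.38) and the cytosolic chaperones (0.33) lie furthest to the right.

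The members that rose often shared an order of libraries within a label, which was noticed after the values were seen. Replicate 2 of the scrambled label had the lowest level of its group for 24 of the 34 members and for all 9 that rose, beside 40.6% of all genes tested. Replicate 1 of the *Pgam* label had the highest level of its group for 17 members and for 7 of the 9, beside 36.9% of all genes tested. Among the 1199 genes called higher over the whole table these shares were 83.8% and 67.4%. *Foxp3*, the defining transcription factor of Treg cells, ran the other way at 282, 371 and 222 CPM under the scrambled label and 89.7, 109 and 131 CPM under the *Pgam* label. Its highest value was in the library with the least *Hspa5* under the scrambled label, and its lowest in the library with the most *Hspa5* under the *Pgam* label. In both groups the full order of the 3 libraries was opposite to that of *Foxp3* for 10 members, 6 of which had been called higher, beside 11.6% of all genes tested and 41.2% of those called higher. With 3 libraries per label no correlation is given.

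**Figure D5:**
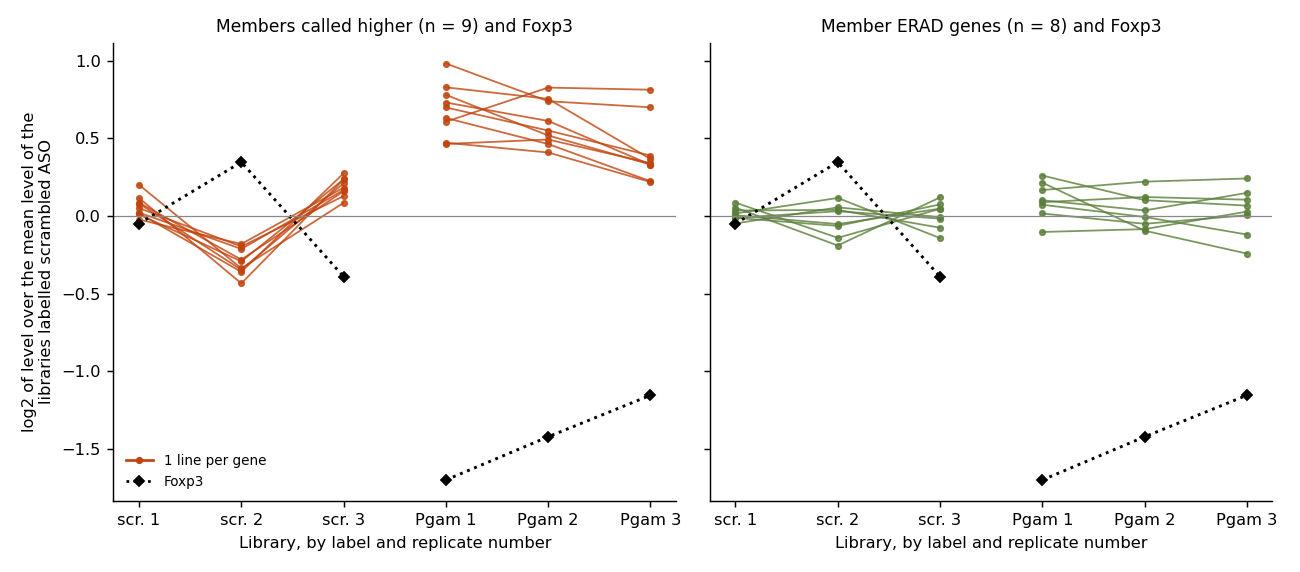
Level in each library relative to the mean of the libraries labelled scrambled ASO, on a log2 scale, for the 9 members called higher (left) and the 8 ERAD members (right), with *Foxp3* as diamonds. Lines join the values of 1 gene within a label and imply no order of replicates, and scrambled replicate 2 is the lowest of its group for all 9 genes on the left.

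Markers were read because the cultures, begun from naïve CD4 cells isolated by negative selection, were not sorted before sequencing. The 10 CD4 T cell markers summed to 3716, 3917 and 3507 CPM under the scrambled label and to 3111, 3152 and 3238 CPM under the *Pgam* label. *Cd4*, the most abundant of them, was at 775, 804 and 732 CPM against 650, 651 and 697 CPM and was not called. For 7 of the 10, every library labelled *Pgam* ASO lay below every library labelled scrambled ASO, beside 19.8% of all genes tested. *Cd3e* was not called (-0.37, SE 0.12, edgeR adjusted p = 0.0520) but was called lower in 5 of 13 alternatives. Of the 10 markers, 3 fell (*Trac*, *Cd28*, *Cd5*), and none was at 0. Without replicate 1 of the scrambled label or replicate 2 of the *Pgam* label, *Cd28* alone of these was called. Of 7 Treg markers, *Foxp3* (-1.41, SE 0.20, edgeR adjusted p = 0.00567), *Ikzf2* and *Nrp1* fell and *Il2ra*, the most abundant, rose (0.52). Without replicate 1 of either label or replicate 2 of the *Pgam* label, *Foxp3* alone of these was called. With the replicate number as a block, *Ikzf2*, *Nrp1* and the T cell marker *Trac* were lost. Their sum was 3477, 3270 and 3815 CPM against 4158, 4180 and 3770 CPM, and overlapped. The part of the Treg share in the members' differences was not tested.

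B and plasma cells, in which ER genes are abundant, were represented by 12 markers, of which 9 were tested and 2 fell, while the main edgeR fit called the other 7 neither way. *Irf4*, which activated T cells also express, was the most abundant by the mean of each label, at 559, 388 and 613 CPM against 970, 834 and 654 CPM (0.66, SE 0.19, edgeR adjusted p = 0.0507), called higher in 8 of 13 alternatives, among them DESeq2, limma-voom and edgeR with RLE size factors. The list summed to 905, 863 and 850 CPM against 1066, 961 and 812 CPM. *Ighm* was at 320, 447 and 216 CPM against 75.6, 111 and 142 CPM (-1.58, SE 0.33, edgeR adjusted p = 0.0282), a call lost without replicate 1 or 2 of either label, without a filter on low counts and with the replicate number as a block, and *Pou2af1* fell by 1.63 on the log2 scale (SE 0.24). The defining plasma cell gene *Tnfrsf17* was at 0 in all 6 libraries, *Jchain* and *Mzb1* were at no more than 0.450 and 0.372 CPM in any library, and the B cell genes *Ms4a1*, *Cd79b* and *Cd79a* were at no more than 5.35 CPM in any library. *Cd79a* was not called (-1.04, SE 0.35, edgeR adjusted p = 0.0661), although it was called lower in 4 of 13 alternatives. Myeloid markers summed to between 3.22 and 7.70 CPM in the 6 libraries, with *Lyz2* the most abundant by the mean of each label but not in every library, and the 4 that were tested were not called. The 7 CD8 and natural killer markers summed to 75.9, 60.2 and 77.6 CPM against 47.9, 43.2 and 44.9 CPM, with *Eomes* the most abundant, *Klrb1c* at 0 in all libraries, 1 called higher (*Cd8a*) and 2 lower (*Eomes*, *Klrd1*). *Klrd1* alone of these was called without replicate 1 of either label, and *Cd8a* alone without replicate 2 of the *Pgam* label. The call of *Cd8a* was lost with the replicate number as a block. The 7 mast cell and basophil markers summed to between 7.99 and 8.94 CPM, with *Kit* the most abundant under the scrambled label and *Cpa3* under the *Pgam* label, 1 called higher (*Gata2*) and 1 lower (*Kit*). The call of *Gata2* was kept in 4 of 12 alternatives, and neither was kept without replicate 1 of the scrambled label or replicate 2 of the *Pgam* label. The part of these cells in the members' differences was not tested.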

How the data were processed

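RNA was sequenced from 6 cultures, and groups and replicate numbers were taken from the labels. The values are estimated counts, which the authors obtained per gene with kallisto and deposited as whole numbers with no normalization. The kallisto version, annotation and rounding are not given in the sources used here, and GRCm38 is named in the submitters' processing notes. Symbols (52073 of 56748 genes matched) and coordinates are from GENCODE M21 on GRCm38, and promoter windows from RefSeq on GRCm38.p6.

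The estimated counts, rounded to whole numbers, were analysed over the whole table in R 4.3.3 with edgeR 4.0.16 (filterByExpr defaults, TMM scaling, robust quasi-likelihood test, two-sided, Benjamini-Hochberg adjustment), after a test on simulated data. Library totals ran from 15860476 to 18032805, and intervals are 95% intervals of the fit. Duplicate libraries were looked for by chi-square of counts per degree of freedom, which was at least 7.4 within a label, so that no pair agreed within sampling noise. Sharing of sequence was counted as the percent of 31-base stretches of a gene's GENCODE M21 transcripts, on either strand, that occur in other genes.

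Alternatives were DESeq2 1.42.0, limma-voom in limma 3.58.1, RLE size factors, library size alone, a threshold of 0.01, the leaving out of single libraries, a block for the replicate number, and a filter that asked either for 10 counts or more in all libraries or for a total of 1 count. The members and lists were chosen with earlier results of these data known. Genes named are all 34 members, *Pgam1* and *Pgam2*, the 3 largest changes in each direction among called genes of each of 7 other lists, and the most abundant and defining genes of 6 marker lists. Other names, given as such or with markers, were chosen after their values were seen. The other lists are of ER folding, ERAD, translocation, sensing, the *Atf4* branch, and chaperones of the cytosol and of mitochondria, and the marker lists are of CD4 T, Treg, B and plasma, myeloid, CD8 and natural killer, and mast and basophil cells. A planned item of the marker lists is not reported here.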

Additional observations from a re-analysis of the deposited data

How the results depend on the processing

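The count of 9 members called higher by edgeR was also 9 with limma-voom, with library size alone, with RLE size factors and with at least 10 counts in every library, and 13 with DESeq2, each including the same 9 genes. It was 14 without a filter on low counts, where more genes were tested, and 1 at an adjusted p under 0.01, and the cause of the former was not tested. The 1 member called lower, *Eif2ak3*, was called in each of these settings. Over all genes, 2565 calls became 453 at an adjusted p under 0.01. With the replicate number as a block, 5 members were called higher, all among the 9, 1 was called lower and 1235 genes were called in all. Deviations from the group means correlated across genes with r of 0.0534, -0.034 and -0.237 for numbers 1, 2 and 3. Not every library correlated best with its own number. Deviations from means of 3 libraries depend on each other, so these values cannot show whether libraries with equal numbers were paired. Leaving out 1 library at a time, which leaves fewer samples, gave 0 to 13 members called higher, 0 to 1 called lower and 391 to 3484 genes called in all, with the fewest without replicate 2 of the *Pgam* label. The median log2 fold change of the members stayed between 0.16 and 0.27 in these settings. Of 442 values for single members under the alternatives, 32 lost a call, 17 gained one and 393 kept their side of the threshold, and 18 values of 6 members that were not called changed sign. At a depth of 15860476 to 18032805 counts, *Wfs1* at 1.59 CPM per kilobase had an SE of 0.22, against a median SE of 0.11 over the members.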
